A study of Mus musculus with 4 samples.

Results

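The 10 genes described here were chosen by name: the P2Y receptors P2ry6, P2ry12, P2ry13 and P2ry14, the P2X channels P2rx4 and P2rx7, the adenosine receptors Adora2a, Adora2b and Adora3, and the ectonucleotidase Entpd1. They were chosen with earlier results of these data known, and are 10 of 24148 genes in the count table. RNA was sequenced from primary mouse microglia shaken off mixed glial cultures, either treated with lipopolysaccharide (LPS, a component of the bacterial outer membrane) at 10 ng/ml for 4 h (LPS, 2 libraries) or labelled as control (2 libraries). The labels name no strain, age or sex of the animals and no sort for microglia. They do not tell whether the replicates were separate cultures either, so a p-value speaks of the spread between these libraries alone, which may be technical. The table held 5095630 and 4592474 counts in LPS and 3617176 and 4080568 counts in control.

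Extracellular ATP, ADP, UDP and adenosine act on microglia through P2Y receptors, which couple to G proteins, through P2X receptors, which are ion channels opened by ATP, and through adenosine receptors, which couple to G proteins. Ectonucleotidases at the cell surface link these branches by cutting ATP and ADP to AMP and AMP to adenosine. In microglia the ADP receptor P2ry12 is known for steering processes toward tissue damage and for marking the resting state, and the adenosine receptor Adora2a for the withdrawal of processes in activated cells.

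The labelled cell type was checked against its markers. Of 16 microglia and macrophage markers, 15 had counts, among them Csf1r (411 and 254 CPM in LPS, 680 and 319 CPM in control) and C1qa (404 and 443 CPM in LPS, 617 and 628 CPM in control). Itgam was at 0 in every library and has 2 accessions in the table. CPM are counts normalized to library size after TMM scaling, which corrects for differences in library composition. One marker of the list, Olfml3, fell past the test's threshold (93 and 108 counts in LPS, 228 and 302 counts in control). The summed level of the list was 2930 and 2470 CPM in LPS and 3870 and 3190 CPM in control, and the markers did not move as one: both LPS libraries lay below both controls for 6 of them and above for 2, Spi1 (479 and 230 CPM in LPS, 168 and 68.8 CPM in control) and Ptprc. Among all tested genes 25.8% lay below and 24.7% above. By library number, 7 of the 16 markers were lower in the libraries numbered 2 of both groups and 2 were higher. Cx3cr1 was at 140 and 51.0 CPM in LPS replicates 1 and 2 and at 330 and 54.4 CPM in control replicates 1 and 2. Other glia were present too and differed more by library number than by treatment: the 8 oligodendrocyte lineage markers summed to 390 and 57.5 CPM in LPS replicates 1 and 2 and to 382 and 65.9 CPM in control replicates 1 and 2, the 8 astrocyte markers to 113 and 395 CPM in LPS and 105 and 260 CPM in control, and the 8 fibroblast and pericyte markers to 95.0 and 336 CPM in LPS and 80.5 and 308 CPM in control. Gjb6, of the astrocyte list, and Pdgfrb, of the fibroblast and pericyte list, were at 0. The 8 border macrophage markers summed to 153 and 92.1 CPM in LPS and 144 and 76.3 CPM in control. In the libraries numbered 1 this was above the astrocyte and the fibroblast and pericyte sums. Most of it was Mrc1 (110 and 66.7 CPM in LPS, 104 and 52.9 CPM in control), and Cd163 was at 0. Markers of lymphocytes, monocytes and neutrophils, neurons and endothelium summed to at most 70.6 CPM per list in any library, with Pecam1, Tek and S100a9 at 0.

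Of the 10 genes, 7 averaged at least 10 counts per library and were tested with edgeR's quasi-likelihood test, with p-values adjusted over all 9548 genes that met this minimum. Adora2a rose past the threshold of 0.05. No member fell past it in the reported edgeR fit, although 2 members had an unadjusted p under 0.05 with higher and 3 with lower values in LPS. Under some other settings edgeR did call members lower, as given in the last section. DESeq2, run as an alternative, called 2 members higher (Adora2a and Adora2b) and 2 lower (P2ry13 and Entpd1). Among all tested genes edgeR called 6.55% higher and 1.79% lower, and DESeq2 7.76% higher and 2.38% lower. The median log2 fold change of the 7 tested members was -0.32, against -0.05 over all tested genes. Both LPS libraries lay above both control libraries for 2 of the 7 tested members and below them for 4, where 24.7% of all tested genes lay above and 25.8% below. These are counts over a small family chosen with earlier results known, and they say nothing particular to it.

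**Figure D1:**
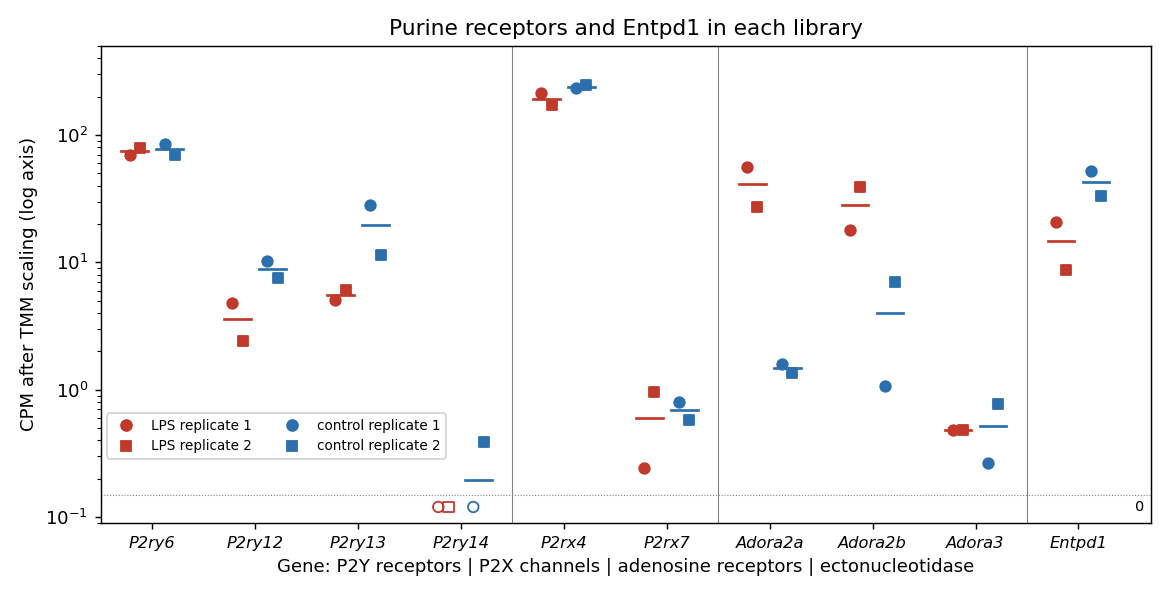
CPM (log axis) of each of the 10 genes in every library, LPS in red left of control in blue, with circles for replicate 1, squares for replicate 2 and a bar at the mean of 2 libraries. Open symbols under the dotted line are counts of 0. Adora2a lies at 56.0 and 27.1 CPM in LPS and at 1.59 and 1.36 CPM in control, and P2ry6 overlaps between the groups.

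Among the tested members, the adenosine receptors Adora2a and Adora2b had the largest fitted differences. Adora2a (chromosome 10, 75316877 to 75334792, GRCm38.p6), a receptor that raises cyclic AMP through Gs, had 233 and 112 counts in LPS and 6 and 7 counts in control, or 56.0 and 27.1 CPM in LPS and 1.59 and 1.36 CPM in control. Both LPS libraries were far above both control libraries, and LPS replicate 1 was well above LPS replicate 2. Its mean was 41.6 ± 20.5 CPM in LPS and 1.47 ± 0.165 CPM in control (SD, n = 2 libraries each), 27.9-fold higher in LPS (log2 fold change 4.80 ± 0.51 SE, edgeR adjusted p = 0.005). With LPS replicate 1 left out the log2 fold change was 4.18 (edgeR adjusted p = 0.011), and with LPS replicate 2 left out it was 5.23 (edgeR adjusted p = 0.0031).

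Adora2b (chromosome 11, 62248984 to 62266452), a Gs-coupled receptor known to need higher adenosine concentrations than Adora2a, had 74 and 161 counts in LPS and 4 and 36 counts in control, or 17.8 and 38.9 CPM in LPS and 1.06 and 6.98 CPM in control. The groups did not overlap, but within each group the library numbered 2 was well above the library numbered 1. The mean was 28.4 ± 14.9 CPM in LPS and 4.02 ± 4.18 CPM in control (SD, n = 2 each), and the log2 fold change of 2.75 ± 0.79 did not pass edgeR's threshold (adjusted p = 0.11). DESeq2 called it higher (2.81, adjusted p = 0.0032), as did edgeR without control replicate 2 (4.68, adjusted p = 0.0033), while the value without control replicate 1 was 2.02 (edgeR adjusted p = 0.064). The adjusted p (edgeR, DESeq2 or limma) lay between 0.0032 and 0.33 over the alternatives without a replicate block. The astrocyte and fibroblast marker sums given above were also higher in the libraries numbered 2 of both groups. This held for 5 of the 8 markers of each list, with Gfap, Aqp4 and Acta2 making up most of the sums in those libraries, while S100b was lower there (39.4 and 2.66 CPM in LPS replicates 1 and 2, 37.3 and 2.71 CPM in control replicates 1 and 2). Their part in the Adora2b values was not tested.

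Adora3 (chromosome 3, 105904421 to 105908928), a Gi-coupled adenosine receptor, had 2 and 2 counts in LPS and 1 and 4 counts in control and was not tested. Its summed counts of 4 in LPS and 5 in control gave a ratio of 0.862 with a 95% interval of 0.171 to 4.00 (Clopper-Pearson, counting error only), so a difference was not detectable at this depth. Adora3 overlaps Tmigd3 on the same strand, and reads could have been split between them.

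Within a library, where no scaling between libraries enters, Adora2a made up 75.4% (95% Clopper-Pearson interval 70.2 to 80.1) and 40.7% (34.9 to 46.8) of the counts of the 3 adenosine receptors in LPS replicates 1 and 2, and 54.5% (23.4 to 83.3) and 14.9% (6.20 to 28.3) in control replicates 1 and 2. These shares overlap between the groups. The 3 adenosine receptors together made up 20.3% (18.3 to 22.4) and 20.4% (18.3 to 22.6) of the counts of all 9 receptors in LPS, and 0.811% (0.405 to 1.45) and 2.64% (1.95 to 3.50) in control. Per kilobase of transcript, which corrects levels of different genes for length, the adenosine receptors made up 21.0% and 22.7% of the receptor CPM in LPS. In control they made up 0.884% and 3.32%. All 9 receptors include P2ry14 and P2rx7, whose levels are uncertain, as given below. The shares hold for the receptors as counted.

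**Figure D2:**
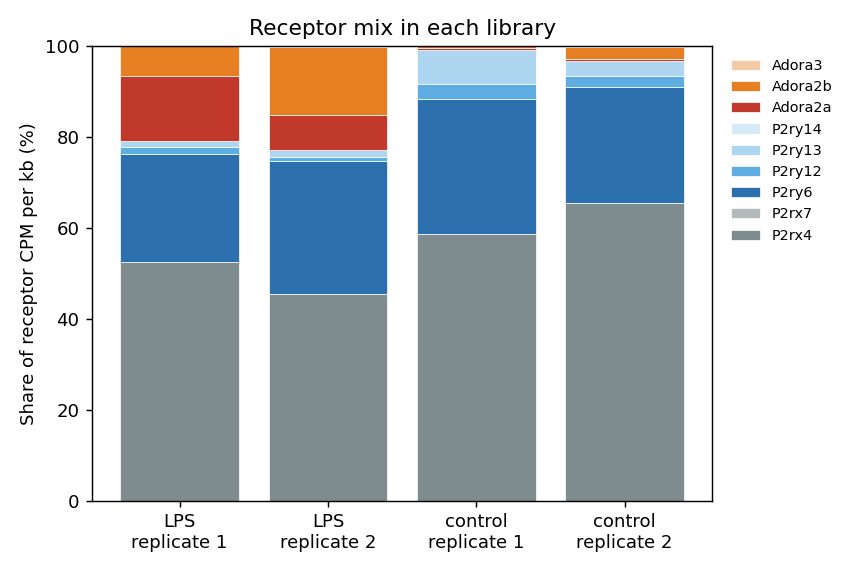
Share (%) of each of the 9 receptors in the summed receptor CPM per kilobase, 1 bar per library, LPS at the left. The levels of P2ry14 and P2rx7 are uncertain. The red and orange parts, Adora2a and Adora2b, are 14.4% and 6.44% in LPS replicate 1, 7.48% and 15.1% in LPS replicate 2, 0.417% and 0.391% in control replicate 1, and 0.374% and 2.71% in control replicate 2.

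In LPS the order of mean levels per kilobase was P2rx4 (70.9 CPM per kb), P2ry6 (38.2), Adora2a (16.0), Adora2b (15.4), Entpd1 (3.51), P2ry13 (2.19) and P2ry12 (1.61). In control the order was P2rx4 (88.6 CPM per kb), P2ry6 (39.5), Entpd1 (10.1), P2ry13 (7.81), P2ry12 (3.97), Adora2b (2.18) and Adora2a (0.567), followed by Adora3, P2rx7 and P2ry14 at 0.219 CPM per kb or less. The levels of P2rx7 and P2ry14 are uncertain, as given below, and so are their places. Among the tested members P2rx4 and P2ry6 stayed at the head of the order in every library. In LPS the ranges of the neighbours Adora2a and Adora2b overlapped over the 2 libraries, and so did those of Entpd1 and P2ry13 and of P2ry13 and P2ry12. In control the ranges of Entpd1 and P2ry13 overlapped, as did those of P2ry13 and P2ry12 and of P2ry12 and Adora2b. Adora2a and Adora2b overlapped there too.

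The P2Y receptors showed lower values in LPS for the ADP receptors and like values for the UDP receptor. P2ry13 (chromosome 3, 59207892 to 59210882), a Gi-coupled ADP receptor, had 21 and 25 counts in LPS and 106 and 59 counts in control, or 5.05 and 6.04 CPM in LPS and 28.1 and 11.4 CPM in control. Both LPS libraries were below both controls, and the controls were far apart. The mean was 5.55 ± 0.70 CPM in LPS and 19.8 ± 11.8 CPM in control (SD, n = 2 each), with a log2 fold change of -1.82 ± 0.51 that did not pass edgeR's threshold (adjusted p = 0.11). It was called lower by DESeq2 (adjusted p = 0.036), with total-count scaling (-2.19, edgeR adjusted p = 0.031), without a filter (-1.71, edgeR adjusted p = 0.045) and without control replicate 2 (-2.36, edgeR adjusted p = 0.0072), and had a value of -1.05 without control replicate 1 (edgeR adjusted p = 0.35).

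P2ry12 (chromosome 3, 59216271 to 59262985), the Gi-coupled ADP receptor of process extension, had 20 and 10 counts in LPS and 39 and 39 counts in control, or 4.81 and 2.42 CPM in LPS and 10.3 and 7.56 CPM in control. The groups did not overlap. The log2 fold change was -1.29 ± 0.47 without a call (edgeR adjusted p = 0.19, DESeq2 adjusted p = 0.34), and ranged from -1.87 without LPS replicate 1 to -0.88 without LPS replicate 2. In bulk RNA, fewer cells of a type and less RNA per cell cannot be told apart. The microglia and macrophage marker sum was itself lower in both LPS libraries, with 6 of 16 markers lower and 2 higher in both. Among all tested genes 25.8% lay below and 24.7% above, and of the markers only Olfml3 was called. The marker sum was also lower in the libraries numbered 2 of both groups, with 7 markers lower and 2 higher there. Its part in the values of P2ry12 and P2ry13 was not tested.

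P2ry6 (chromosome 7, 100937630 to 100975498), the UDP receptor known for triggering phagocytosis in microglia, had 289 and 328 counts in LPS and 320 and 357 counts in control, or 69.5 and 79.3 CPM in LPS and 84.8 and 69.2 CPM in control. The groups overlapped, and the log2 fold change was -0.05 ± 0.22 (edgeR adjusted p = 0.94). Set against P2ry6 within the same library, P2ry13 made up 6.77% (95% Clopper-Pearson interval 4.24 to 10.2) and 7.08% (4.64 to 10.3) of the summed counts of the pair in LPS, and 24.9% (20.8 to 29.3) and 14.2% (11.0 to 17.9) in control. P2ry12 made up 6.47% (4.00 to 9.82) and 2.96% (1.43 to 5.37) of its pair with P2ry6 in LPS, and 10.9% (7.84 to 14.6) and 9.85% (7.10 to 13.2) in control. Both LPS shares lay below both control shares for P2ry13 and for P2ry12. The intervals cover counting error within 1 library only, and those of the controls did not overlap each other for P2ry13.

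P2ry14 (chromosome 3, 59114623 to 59153492), a receptor for UDP-glucose, had 0 counts in both LPS libraries and 0 and 2 counts in control. It has 8 accessions in the table, and the counts of such genes were low in general: an average of 10 counts was reached by 11.7% of 4798 genes with more than 1 accession, against 46.8% of 19087 genes with 1 accession. The level of P2ry14 is therefore uncertain, and no fold is given. P2rx7 has 5 accessions, and each of the other 8 members has 1.

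P2ry14, P2ry13 and P2ry12 lie in this order on the minus strand of chromosome 3, with 54399 bases between P2ry14 and P2ry13 and 5388 bases between P2ry13 and P2ry12, and all of them lie inside Med12l, which runs on the plus strand. The libraries were directional, but the strand setting of the counting is not given, so reads of the receptors and of Med12l may not have been kept apart. Med12l had 47 and 31 counts in LPS and 53 and 60 counts in control (log2 fold change -0.44 ± 0.34, edgeR adjusted p = 0.55).

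Promoter windows from RefSeq (GRCm38.p6, 250 bases before to 50 after a start) were found for 8 members, and not for Adora2a and P2ry6. The windows of P2ry12, P2ry13, Entpd1 and Adora2b are shown, because these 4 members had an unadjusted edgeR p under 0.05 and an entry in the table, and letters of a motif match are in capitals. P2ry12 and P2ry13 are on the minus strand at chr3:59262936-59263235 and chr3:59210833-59211132, and Entpd1 and Adora2b on the plus strand at chr19:40659520-40659819 and chr11:62248734-62249033, each written 5′ to 3′ on the gene's strand. Entpd1 had another window, which is described below.
P2ry12: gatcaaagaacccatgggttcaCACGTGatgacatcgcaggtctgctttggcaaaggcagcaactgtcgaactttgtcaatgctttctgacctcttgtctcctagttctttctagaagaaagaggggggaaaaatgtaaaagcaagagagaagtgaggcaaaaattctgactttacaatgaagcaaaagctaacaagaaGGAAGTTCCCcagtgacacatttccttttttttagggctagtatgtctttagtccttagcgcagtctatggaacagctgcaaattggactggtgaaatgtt
P2ry13: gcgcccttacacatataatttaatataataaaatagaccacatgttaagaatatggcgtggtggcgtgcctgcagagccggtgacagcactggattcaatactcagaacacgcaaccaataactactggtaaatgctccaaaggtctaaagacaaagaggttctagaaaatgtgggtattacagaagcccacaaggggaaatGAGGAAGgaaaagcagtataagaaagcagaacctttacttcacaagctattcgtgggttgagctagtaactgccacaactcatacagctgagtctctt
Entpd1: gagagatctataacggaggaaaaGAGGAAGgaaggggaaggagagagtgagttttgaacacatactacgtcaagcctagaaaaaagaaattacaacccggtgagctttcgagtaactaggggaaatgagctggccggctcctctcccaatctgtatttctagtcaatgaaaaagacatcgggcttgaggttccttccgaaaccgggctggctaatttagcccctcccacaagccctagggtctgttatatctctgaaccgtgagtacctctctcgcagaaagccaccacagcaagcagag
Adora2b: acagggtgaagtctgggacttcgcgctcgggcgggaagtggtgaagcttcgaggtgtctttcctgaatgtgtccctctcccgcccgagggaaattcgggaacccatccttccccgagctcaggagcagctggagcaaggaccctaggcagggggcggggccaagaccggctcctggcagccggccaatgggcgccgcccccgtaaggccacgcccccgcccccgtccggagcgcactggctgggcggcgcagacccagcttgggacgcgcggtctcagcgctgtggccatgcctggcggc

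On both strands 6 motifs were searched: the kappaB consensus, PU.1 (GAGGAAG), AP-1 (TGANTCA), CRE (TGACGTCA), ISRE (GAAA, any 2 bases, GAAA) and HRE (ACGTG). The P2ry12 window held a kappaB consensus match on the opposite strand (GGAAGTTCCC as read on the gene's strand) from position -51 and HRE matches on both strands from -228 and -227 that overlap each other, counted from the start at 1. The P2ry13 window held a PU.1 match from -48, the Entpd1 window a PU.1 match from -227, and the Adora2b window none of the 6. Another Entpd1 window, at chr19:40612116-40612415 and not shown, also held none of the 6. Of 32851 windows of the same length, 8.46% held the kappaB consensus, 13.6% PU.1, 7.81% AP-1, 1.79% CRE, 3.44% ISRE and 19.6% HRE. A match describes letters only.

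Among the P2X channels, P2rx4 (chromosome 5, 122707518 to 122729739) is a cation channel opened by ATP and known from microglia of the injured spinal cord. It was the most abundant of the tested receptors per kilobase in every library. It had 881 and 708 counts in LPS and 878 and 1272 counts in control, or 212 and 171 CPM in LPS and 233 and 246 CPM in control. Both LPS libraries were slightly below both controls, and the log2 fold change of -0.32 ± 0.20 did not pass the threshold (edgeR adjusted p = 0.45). It was called lower in 1 alternative, quantile normalization with limma-trend (-0.86, limma adjusted p = 0.043). P2rx7 (chromosome 5, 122643927 to 122692336), the ATP-gated channel that triggers the NLRP3 inflammasome, lies 15181 bases from P2rx4 and had 1 and 4 counts in LPS and 3 and 3 counts in control over 5 accessions. It was not tested, its ratio of 0.898 has a counting interval of 0.217 to 3.53, and its level is uncertain as for P2ry14.

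Entpd1 (chromosome 19, 40612366 to 40741602), the ectonucleotidase CD39 that cuts ATP and ADP to AMP, had 87 and 36 counts in LPS and 196 and 172 counts in control, or 20.9 and 8.70 CPM in LPS and 51.9 and 33.3 CPM in control. Both LPS libraries lay below both controls. The mean was 14.8 ± 8.65 CPM in LPS and 42.6 ± 13.1 CPM in control (SD, n = 2 each), with a log2 fold change of -1.52 ± 0.47 that did not pass edgeR's threshold (adjusted p = 0.14). It was called lower by DESeq2 (-1.51, adjusted p = 0.047), with total-count scaling (-1.95, edgeR adjusted p = 0.033) and without control replicate 2 (-1.84, edgeR adjusted p = 0.033). Without LPS replicate 2, the library with the lowest level, it was -1.02 (edgeR adjusted p = 0.36), and without LPS replicate 1 it was -2.29 (0.086). Of the 16 microglia and macrophage markers, 6 were lower and 2 higher in both LPS libraries, against 25.8% and 24.7% of all tested genes. In the libraries numbered 2 of both groups, 7 markers were lower and 2 higher. The part of these markers in the values of Entpd1 was not tested.

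Taken between libraries of the same number, the log2 ratios of LPS over control kept their sign for 6 of the 7 tested members. For these 6 the groups did not overlap, so any pairing of libraries keeps the sign, and this count adds nothing to that. The ratios were 5.14 in the libraries numbered 1 and 4.32 in those numbered 2 for Adora2a, and 4.07 and 2.48 for Adora2b. Both numbers also gave lower values in LPS for P2ry13 (-2.47 and -0.92), P2ry12 (-1.10 and -1.64), Entpd1 (-1.31 and -1.94) and P2rx4 (-0.13 and -0.53). P2ry6 was -0.29 in the libraries numbered 1 and 0.20 in those numbered 2. These are ratios of single libraries with no test, and the labels do not say what a number marks. With the number as a replicate block, an alternative given in the last section, edgeR also called Adora2b higher (adjusted p = 6.3e-08). It then called P2ry12 (0.0051), P2ry13 (1.3e-04) and Entpd1 (2.1e-06) lower.

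**Figure D3:**
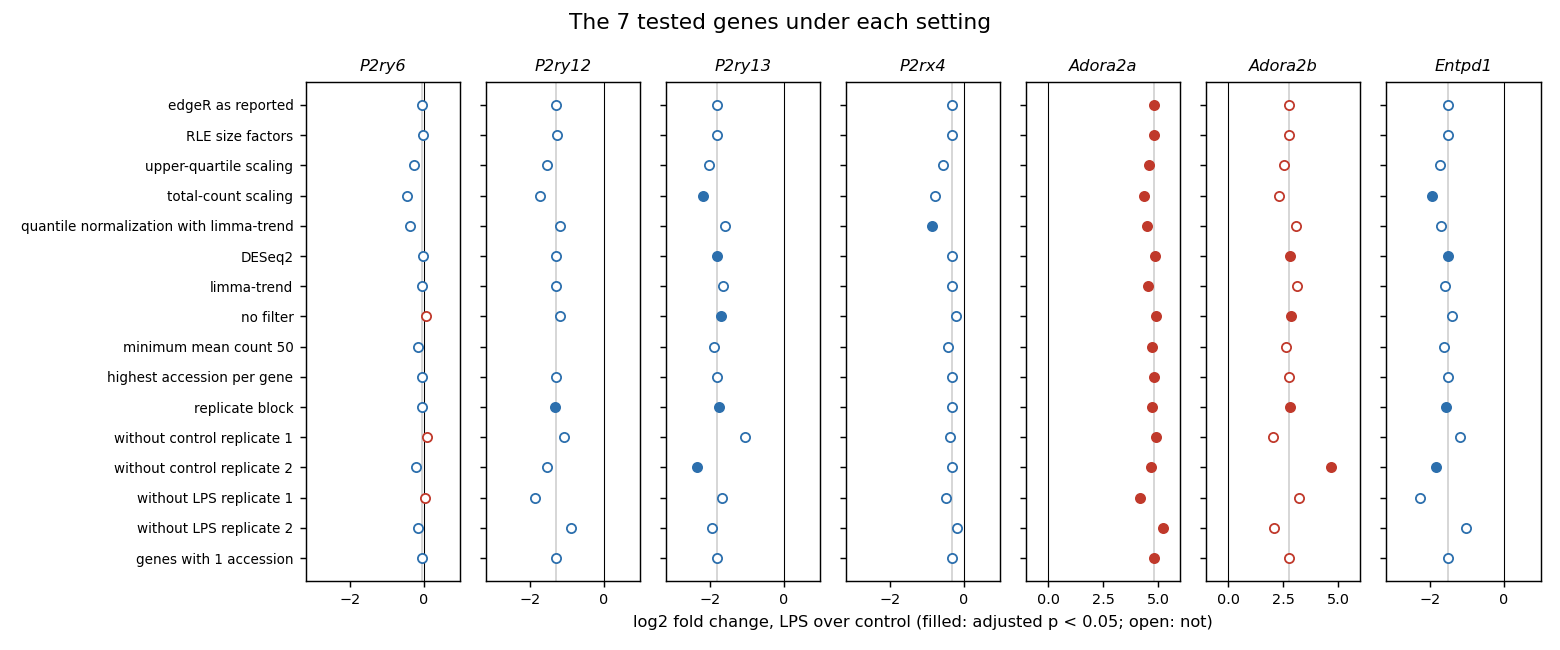
Log2 fold change of LPS over control for the 7 tested genes, 1 panel each, under the fit reported here and every alternative (rows), filled where the adjusted p is under 0.05 and open where it is not. Adora2a is filled in every row, between 4.18 and 5.23, P2ry12 is filled in 1 row, and P2ry6 stays between -0.46 and 0.10.

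The steps around the receptors were described with lists of purine pathway genes. Without the 10 members these lists held 93 genes, of which 43 were tested, and edgeR called 10 higher and 3 lower (median log2 fold change 0.01, against -0.05 for all tested genes, of which 6.55% were called higher and 1.79% lower). The lists were chosen with earlier results known, so these counts are a description. Of the 49 that were in the table and not tested, 32 have more than 1 accession, so the lists are covered in part.

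Among 11 ectonucleotidases, Entpd1 included, 5 were tested, of which 2 rose and 1 fell. Nt5e, the enzyme CD73 that cuts AMP to adenosine, had 25 and 16 counts in LPS and 75 and 91 counts in control, and fell to 4.94 ± 1.52 CPM in LPS, against 18.7 ± 1.58 CPM in control (SD, n = 2 each; log2 fold change -1.92 ± 0.35, edgeR adjusted p = 0.028). Its call was lost without control replicate 1 (-1.84, edgeR adjusted p = 0.06), LPS replicate 1 (-2.27, 0.086) or LPS replicate 2 (-1.63, 0.15). Enpp4, a membrane phosphodiesterase known to cut the dinucleotide Ap3A, rose 12.1-fold, to 145 ± 32.3 CPM in LPS, against 11.9 ± 1.83 CPM in control (log2 fold change 3.60 ± 0.28, edgeR adjusted p = 0.002). Acpp, also called Acp3, a phosphatase known to make adenosine from AMP at sensory neurons, rose by a log2 of 3.22 ± 0.34 (edgeR adjusted p = 0.0049) on 164 and 260 counts in LPS and 20 and 29 counts in control, and has 2 accessions. Enpp1, which makes pyrophosphate from ATP, had a log2 fold change of -0.63 ± 0.35 (edgeR adjusted p = 0.39).

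Among 4 Entpd enzymes of internal membranes, 2 were tested, Entpd6 (log2 fold change -0.39 ± 0.38) and Entpd7 (-0.55 ± 0.41), with 0 edgeR or DESeq2 calls and 0 unadjusted p under 0.05. Of 15 genes of adenosine metabolism and transport, 6 were tested and 1 rose. This was Pnp, purine nucleoside phosphorylase, which splits inosine and guanosine, with 3948 and 2688 counts in LPS and 255 and 232 counts in control (14.2-fold, log2 fold change 3.83 ± 0.33, edgeR adjusted p = 0.0025). Of 9 nucleotide release genes, 5 were tested and 1 rose. This was Calhm6, of the calcium homeostasis modulator family of pore proteins, with 540 and 327 counts in LPS and 1 and 5 counts in control (log2 fold change 7.24 ± 0.54, edgeR adjusted p = 0.0016). Without control replicate 2, which leaves 1 control count, the log2 ratio from counts of Calhm6 was 8.62, with a 95% interval of 6.14 to 13.93 (Clopper-Pearson, counting error only). Lrrc8a, a subunit of the volume-regulated anion channel, had a log2 fold change of -0.45 ± 0.27 (edgeR adjusted p = 0.44).

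Of 32 G proteins and effectors, 15 were tested, of which 2 rose and 2 fell in edgeR, while DESeq2 called 4 higher and 3 lower. The 17 others each have more than 1 accession. Pik3r5, a regulatory subunit of the PI3-kinase that G protein-coupled receptors engage, rose by a log2 of 2.27 ± 0.24 (edgeR adjusted p = 0.0049), and Pde4b, which degrades cyclic AMP, by 2.23 ± 0.40 (edgeR adjusted p = 0.029) on 40 and 34 counts in LPS and 6 and 11 counts in control. The call of Pde4b was lost with any 1 library left out (2.04 to 2.44) and with total-count scaling (1.78, edgeR adjusted p = 0.066). Rgs2 and Rgs10, of a family that shortens G protein signals, fell. Rgs2 was at 36.2 ± 8.30 CPM in LPS and 365 ± 124 CPM in control (log2 fold change -3.33 ± 0.34, edgeR adjusted p = 0.0044). Rgs10, a regulator abundant in microglia, had 198 and 162 counts in LPS and 495 and 633 counts in control (log2 fold change -1.55 ± 0.22, edgeR adjusted p = 0.012), a call lost without LPS replicate 1 (-1.70, edgeR adjusted p = 0.066) or LPS replicate 2 (-1.41, 0.099). Other genes of the list were chosen after their values were seen. Rgs16, of the same family, had 335 and 628 counts in LPS and 74 and 283 counts in control, with a value in the other direction that DESeq2 called (1.66, adjusted p = 0.024) and edgeR did not (1.63, adjusted p = 0.17). Rgs1 had a log2 fold change of 0.43 ± 0.22 (edgeR adjusted p = 0.35), or -0.13 after quantile normalization. The G protein subunit genes Gna13 (1.00, edgeR adjusted p = 0.051) and Gna12 (-1.27, edgeR adjusted p = 0.08) were the other DESeq2 calls (adjusted p = 0.018 and 0.019). Gnai2 and Gnaq, with higher mean CPM than Rgs1, had no call (log2 fold change 0.01 ± 0.25 and 0.51 ± 0.40, edgeR adjusted p = 0.99 and 0.57).

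Among potassium channels and partners of P2rx7, 8 of 10 genes were tested and 4 rose: Nlrp3, Casp1, Gsdmd and Il1b, the sensor, protease, pore protein and cytokine of the inflammasome. Gsdmd had the smallest log2 fold change of these (1.42 ± 0.26, edgeR adjusted p = 0.029), and its call was lost without control replicate 2 (1.27, edgeR adjusted p = 0.055), LPS replicate 1 (1.16, 0.19) or LPS replicate 2 (1.64, 0.053) and with total-count scaling (0.98, 0.059). Not every partner in the list rose. Of its uncalled genes, Nek7, Kcnj2 and Pycard had the highest mean CPM. Their log2 fold changes were -0.11 ± 0.26, -0.79 ± 0.25 and -0.03 ± 0.25 (edgeR adjusted p = 0.88, 0.15 and 0.97). Of the 7 P2X channels only P2rx4 was tested, and of the 4 adenosine receptors Adora2a and Adora2b. Of the 7 P2Y receptors 4 were tested and the reported edgeR fit called 0 of them in either direction. The unadjusted p was under 0.05 for 2 (P2ry12 and P2ry13), and there was 1 DESeq2 call (P2ry13). The receptor P2ry2, which responds to ATP and UTP and is not one of the 10 genes, had 91 and 69 counts in LPS and 90 and 75 counts in control (log2 fold change 0.01 ± 0.34, edgeR adjusted p = 0.99), and its sign changed with the scaling.

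**Figure D4:**
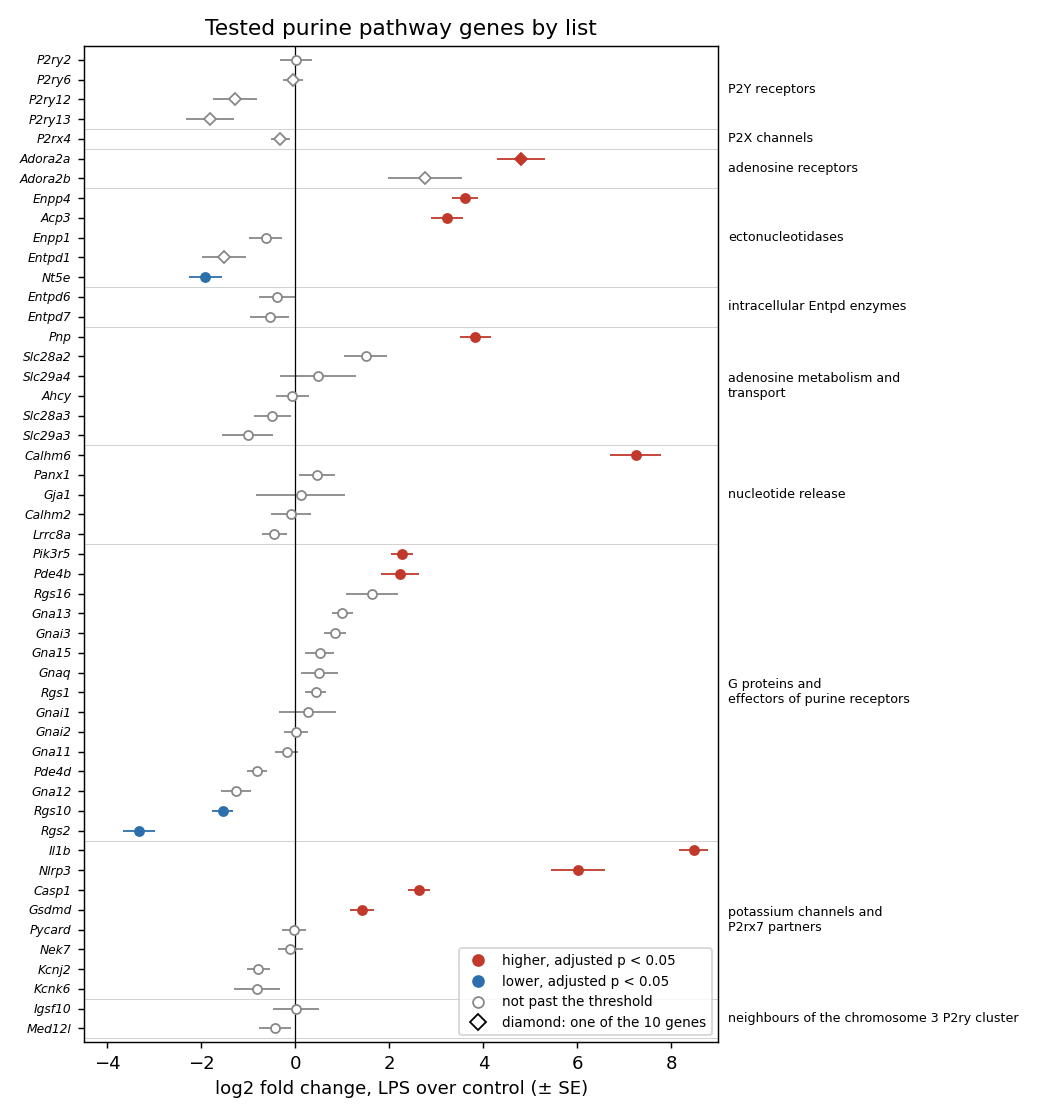
Log2 fold change of LPS over control (± SE) of every tested gene of the purine pathway lists, with the lists named at the right. Red and blue filled symbols passed an edgeR adjusted p of 0.05 (Adora2a at 4.80 among the 10 genes, which are diamonds, and Nt5e at -1.92 among the ectonucleotidases), and open grey symbols did not.

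The tested genes outside the lists whose pattern over the 4 libraries was most like that of Adora2a were Batf2, Cflar and Helz2, with root mean square differences in centred log2 CPM of 0.121, 0.17 and 0.188. Batf2 had 205 and 92 counts in LPS and 6 and 7 counts in control. Cflar had 354 and 188 counts in LPS and 11 and 16 counts in control, over 3 accessions, and Helz2 had 1828 and 1223 counts in LPS and 54 and 68 counts in control. The likeness rests on 4 libraries.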

How the data were processed

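The deposited table gives whole-number counts per library for 32915 RefSeq accessions. It is named as normalized, but its values show no clear mark of rescaling and were treated as counts. HTSeq 0.6.1, Cufflinks 2.2.1, TopHat2 2.0.10, Trimmomatic 0.33, CASAVA 1.8.2 and build mm10 are listed in the submitters' processing notes. Which tool did what, the counting mode, strand setting and annotation: not given in the sources used here. Accessions were matched to symbols with a RefSeq table of GRCm38.p6 (32487) or GENCODE metadata (187), 241 kept their identifier, and counts were summed per symbol.

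LPS was compared with control by edgeR 4.0.16 (quasi-likelihood, R 4.3.3; two-sided; TMM factors of 0.82 and 0.906 in LPS and 1.05 and 1.28 in control) for genes averaging 10 counts or more, with Benjamini-Hochberg adjustment. The standard error is the log2 fold change divided by the root of F. Counts of replicates were further apart than sampling noise allows (chi-square over degrees of freedom 13.1 in LPS and 16.7 in control). Alternatives used DESeq2 1.42.0, limma 3.58.1, other scalings and filters, 1 library left out, and the replicate number as a block.

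The members and lists were chosen with earlier results of these data known. Named were all members, called list genes, and the 3 genes most like the member with the largest called increase. Of uncalled genes, up to 3 per list were named in order of CPM. The list of G proteins and effectors was an exception, as its uncalled genes were chosen after their values were seen. Levels per kilobase use the longest GENCODE transcript matched to a gene's accessions.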

Additional observations from a re-analysis of the deposited data

How the results depend on the processing

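The call of Adora2a held under all 15 alternatives (log2 fold change 4.18 to 5.23). The other 6 tested members kept the sign of their log2 fold change except P2ry6, which was 0.06 without a filter, 0.10 without control replicate 1 and 0.04 without LPS replicate 1. P2ry2 was -0.21 with upper-quartile scaling, -0.40 with total-count scaling, -0.03 after quantile normalization, -0.08 with a minimum mean count of 50, and between -0.33 (without control replicate 2) and 0.39 (without control replicate 1) with 1 library left out, at -0.20 without LPS replicate 1. Rgs1 was -0.13 after quantile normalization. The cause was not tested.

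Members called higher numbered 1 in the reported fit and 2 with DESeq2 or without a filter, and 1 to 2 with 1 library left out. Members called lower numbered 0 in the reported fit, 2 with total-count scaling or DESeq2, 1 after quantile normalization or without a filter, and 0 to 2 with 1 library left out. Over all genes, 625 were called higher and 171 lower. The lower calls numbered 320 with upper-quartile scaling, 489 with total-count scaling and 322 after quantile normalization, and with 1 library left out the calls ranged from 335 to 629 higher and from 33 to 260 lower. Over all genes the median log2 fold change was -0.28 with upper-quartile scaling, -0.48 with total-count scaling, -0.18 without a filter and -0.14 after quantile normalization, against -0.05 as reported. Other pathway genes called lower numbered 3 in the reported fit, 5 with upper-quartile scaling, total-count scaling, quantile normalization or a minimum mean count of 50, and 1 to 5 with 1 library left out. Those called higher numbered 10 in the reported fit, 8 with total-count scaling, 12 with DESeq2 or without a filter, and 8 to 10 with 1 library left out. Restricting the test to genes with 1 accession was chosen after seeing the data and changed no member's call. Each of the 7 tested members has 1 accession, so this setting and that of the highest accession per gene left their counts as they were. Neither could show an effect of several accessions on a member.

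The labels give LPS and control libraries the same replicate numbers without saying what a number marks. Across 9548 genes, which are not independent replicates, the deviations of same-numbered libraries from their group means had a correlation of 0.644. Once the number was entered as a replicate block, edgeR called 1676 genes higher and 1258 lower. It called 2 members higher (Adora2a, and Adora2b with an adjusted p of 6.3e-08) and 3 lower (P2ry12 at 0.0051, P2ry13 at 1.3e-04 and Entpd1 at 2.1e-06), and 16 other pathway genes higher and 9 lower.

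At this depth Adora3, P2rx7 and P2ry14 had at most 4 counts in any library and no test. The part of depth, of several accessions and of overlapping genes in these low counts was not tested.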
